A study of Mus musculus with 6 samples.

Results

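The genes described here encode 9 enzymes that produce NADPH or belong to the pentose phosphate pathway. They were G6pdx, Pgls, Pgd, Taldo1, Tkt, Me1, Me2, Idh1 and Idh2, and they were taken by gene symbol from a table of 16108 genes. All 9 symbols were found, and all 9 genes passed the filter on low values, which left 11664 genes for testing. RAW264.7 is a mouse macrophage-like line, and its cells, at passage 3, were left overnight to attach to the devices that carried the acoustics. In the acoustics-on group a 5 kHz drive of 18 V, measured peak to peak, ran for 48 h (3 libraries). In the acoustics-off group the cells stayed on the devices for 48 h with no drive (3 libraries). Both groups carried the device itself, and the petri-dish control of the series was not analysed here. Values are FPKM, fragments per kilobase of transcript and per 1000000 mapped fragments.

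NADPH is the electron donor that glutathione reductase and thioredoxin reductase use to renew antioxidant thiols, and that NADPH oxidase and nitric oxide synthase of macrophages use to make their oxidants. The oxidative branch of the pentose phosphate pathway makes NADPH at its first and last steps, and the non-oxidative branch returns the sugar phosphates to glycolysis. Malic enzyme and the NADP-dependent isocitrate dehydrogenases give NADPH in the cytosol and the mitochondria, from malate and from isocitrate. Several genes of this group are known targets of NRF2, the transcription factor of the oxidative stress response. Whether NRF2 acted in these cells was not tested.

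With acoustics on, Me1, Pgd and Taldo1 rose and none of the 9 fell. Me1 had 5.90 times the acoustics-off mean, Pgd 2.92 times and Taldo1 1.92 times. The count was 3 higher and 0 lower (limma, adjusted p under 0.05 over all genes tested), against 1.5% of all genes higher and 0.574% lower. At an unadjusted p under 0.05 the count was 5 higher and 0 lower, against 10.5% of all genes higher and 9.16% lower. In the authors' deposited table it was 3 higher and 0 lower at an adjusted p under 0.05, with 5.08% of its genes higher and 2.49% lower. All acoustics-on libraries lay above all acoustics-off libraries for 5 members, namely Me1, Pgd, Taldo1, G6pdx and Tkt, and this held for 17.1% of the genes tested. The opposite order, found for 17.7% of the genes tested, held for 0 members. The median log2 difference was 0.33 over the 9 members and -0.03 over all genes tested. The members were chosen with earlier results of these data known, so the shares of all genes stand beside these counts as a description.

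The libraries differed in ways that touch these values. Expression against the acoustics-off mean had a rank correlation with transcript length of -0.60 and -0.48 in acoustics-on replicates 1 and 2 and of 0.03 in replicate 3, against 0.27, -0.33 and 0.04 in acoustics-off replicates 1 to 3, across 9962 protein-coding genes, which are not independent replicates. In acoustics-on replicate 1 the shortest quintile of genes lay at a median of 0.60 on the log2 scale, and the longest quintile lay at -0.63, while in the acoustics-off libraries these medians lay between -0.06 and 0.05. All 10 macrophage markers examined were above 1 FPKM on average, with a summed level, most of it Lyz2, of 20011 to 26935 FPKM in the acoustics-on libraries and 28239 to 30470 FPKM in the acoustics-off libraries. For 6 of the 10 every acoustics-on library lay below every acoustics-off library, and the other 4 overlapped. The lower order held for 17.7% of all genes tested. Adgre1, Cd68, Csf1r, Itgam and Lyz2, which are among the 6, did not pass (limma, adjusted p = 0.096 to 0.38). Of the 6, Mrc1, the mannose receptor gene, fell, at 6.45 ± 6.49 FPKM with acoustics on and 43.0 ± 4.27 FPKM with acoustics off (SD, n = 3 each; limma, adjusted p = 0.046). The 4 fibroblast markers summed to at most 1.86 FPKM in any library. Of 4 epithelial and 4 B cell markers 1 each had a row, at no more than 0.12 FPKM, and the 4 T cell markers had none, so T cells were not assessed. The 3 endothelial markers with a row summed to 1.35 to 7.80 FPKM with acoustics on and 0.78 to 1.32 FPKM with acoustics off, most of it Vwf. The part of these differences in the results was not tested. In bulk RNA, fewer cells of a kind and less RNA per cell cannot be told apart. Separate cultures are not stated for the libraries of a group, so p-values measure the spread between these libraries, which may be technical.

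**Figure D1:**
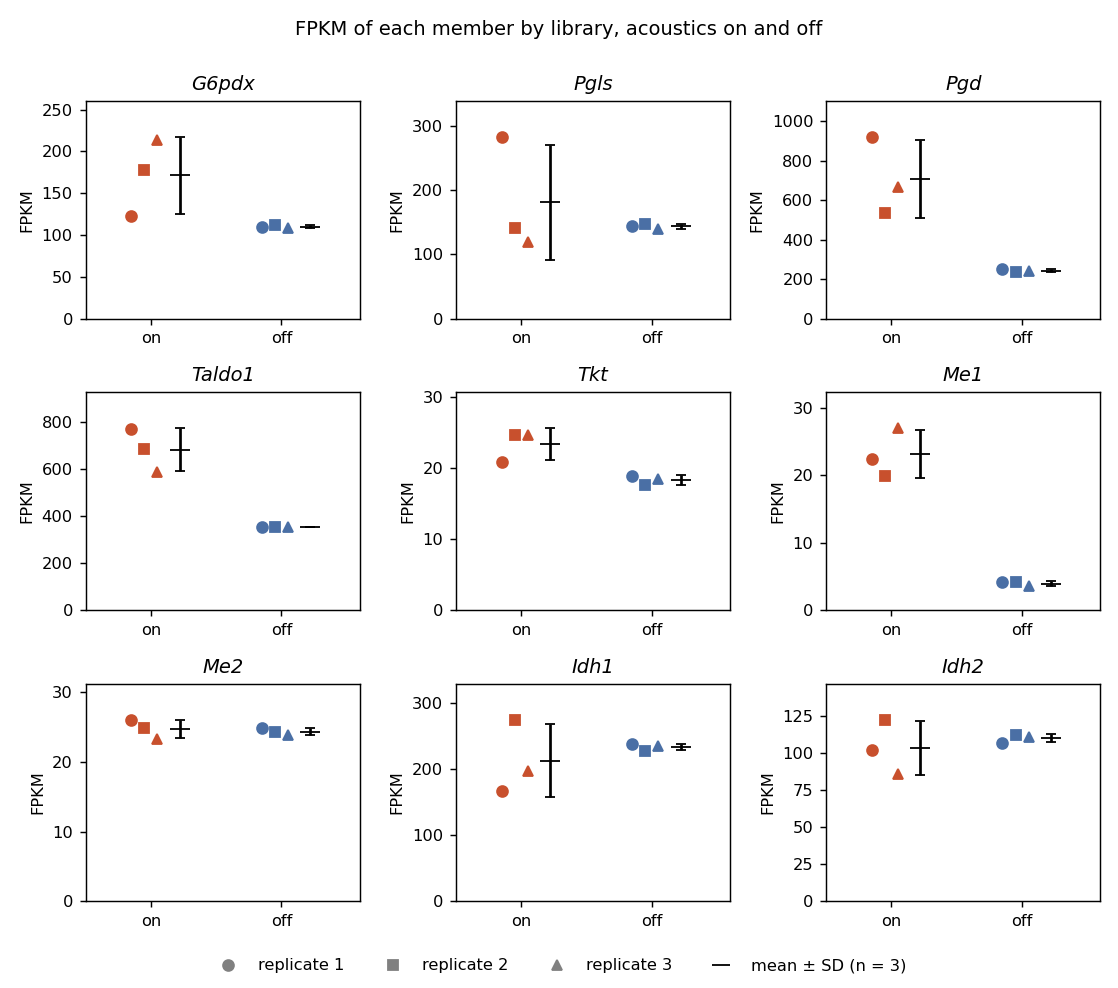
FPKM of the 9 members in each library (y axes start at 0), with acoustics on at the left and acoustics off at the right of each panel; bars are the mean ± SD of 3 libraries. Me1, Pgd, Taldo1, G6pdx and Tkt had every acoustics-on library above every acoustics-off library, and the other members overlapped.

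The start regions of the members were examined in the RefSeq promoter table (GRCm38.p6), which holds 250 bases before and 50 bases after a start, with 11 windows for 8 of the members. The core of the antioxidant response element, to which NRF2 binds with small MAF proteins, was searched on both strands as TGACNNNGC. It was in 12.4% of all 32851 windows of the table. Among the members it was in 1 of 2 windows of Me1, in the window of G6pdx and in 1 of 2 windows of Pgd. The 4 windows below belong to the 3 genes that rose and to G6pdx, each 5′ to 3′ in the direction of the gene, with the match in capitals.
Me1, minus strand, chr9:86695865-86696164: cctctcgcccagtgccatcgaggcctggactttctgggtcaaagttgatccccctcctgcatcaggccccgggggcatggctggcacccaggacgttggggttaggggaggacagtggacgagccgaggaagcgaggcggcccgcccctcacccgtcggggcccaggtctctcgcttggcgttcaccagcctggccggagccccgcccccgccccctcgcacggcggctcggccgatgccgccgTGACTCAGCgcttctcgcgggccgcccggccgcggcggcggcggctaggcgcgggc
G6pdx, minus strand, chrX:74428831-74429130: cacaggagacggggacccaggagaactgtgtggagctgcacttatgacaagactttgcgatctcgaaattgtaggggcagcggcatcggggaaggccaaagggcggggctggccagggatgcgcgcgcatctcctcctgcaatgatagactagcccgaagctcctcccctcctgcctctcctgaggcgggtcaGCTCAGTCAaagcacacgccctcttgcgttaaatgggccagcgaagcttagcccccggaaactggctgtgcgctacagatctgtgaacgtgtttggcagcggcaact
Pgd, minus strand, chr4:149166656-149166955: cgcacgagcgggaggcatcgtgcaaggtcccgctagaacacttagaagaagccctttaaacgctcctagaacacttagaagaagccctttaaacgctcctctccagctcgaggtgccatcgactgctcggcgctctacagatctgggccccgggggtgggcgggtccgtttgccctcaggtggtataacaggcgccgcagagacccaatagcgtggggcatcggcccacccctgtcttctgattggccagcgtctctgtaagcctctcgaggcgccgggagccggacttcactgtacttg
Taldo1, plus strand, chr7:141391910-141392209: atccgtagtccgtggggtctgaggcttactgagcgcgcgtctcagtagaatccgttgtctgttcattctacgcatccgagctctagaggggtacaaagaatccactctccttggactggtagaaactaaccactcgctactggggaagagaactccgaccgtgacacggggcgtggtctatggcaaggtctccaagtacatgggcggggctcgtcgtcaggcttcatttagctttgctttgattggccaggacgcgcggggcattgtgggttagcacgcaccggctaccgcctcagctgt
In Me1 the match spans bases 245 to 253 of the window, across the start, and its first 7 bases also match the AP-1 motif TGANTCA, which was in 7.81% of all windows. In G6pdx the match is on the opposite strand at bases 194 to 202, and it holds no AP-1 match. The Pgd and Taldo1 windows printed have no match, and the match of Pgd lies in its other window, just after a start further inside the gene (chr4:149166033-149166332). The GC box GGGCGG was in 9 of the 11 member windows and in 35.7% of all windows. The E-box CACGTG (7.15% of all windows) and the C/EBP-ATF4 motif TGATGNAA (3.97%) were in 0 member windows. These matches describe letters in the windows and no binding was measured.

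G6pdx encodes glucose-6-phosphate dehydrogenase, which opens the oxidative branch and sets its rate (chromosome X, 74409483 to 74429194, minus strand, GRCm38). It had 122.5, 177.7 and 213.6 FPKM in the acoustics-on libraries (replicates 1 to 3), against 109.2, 112.5 and 108.4 FPKM in the acoustics-off libraries. The groups did not overlap, but acoustics-on replicate 1 lay much nearer to the acoustics-off libraries than the other 2 did. The log2 difference was 0.60 (95% interval 0.10 to 1.09) and did not pass over all genes (limma, adjusted p = 0.20). Without acoustics-on replicate 1 it passed, at a log2 difference of 0.82 (limma, adjusted p = 0.0090), in a fit that called 4.34% of all genes higher. G6pd2, a near-copy of G6pdx elsewhere in the mouse genome, has no row in the table, so reads shared between the copies could not be followed.

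Pgls encodes 6-phosphogluconolactonase, the middle step of the branch (chromosome 8, 71592176 to 71601092). It had 282.8, 141.1 and 118.9 FPKM with acoustics on, against 144.9, 147.7 and 139.4 FPKM with acoustics off. The value of acoustics-on replicate 1 stood far above all others, and the other acoustics-on libraries lay within or below the acoustics-off range. The log2 difference was 0.22 (95% interval -0.51 to 0.95; limma, adjusted p = 0.67), and it was -0.15 without acoustics-on replicate 1. The longest transcript of Pgls, at 1062 bases, is shorter than that of any other member. With the length and GC trend divided out its values were 171.8, 146.8 and 145.5 FPKM with acoustics on, against 168.0, 161.4 and 167.2 FPKM with acoustics off.

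Pgd encodes 6-phosphogluconate dehydrogenase, the second NADPH-making step of the branch (chromosome 4, 149149991 to 149166771, minus strand). It had 919.0, 532.5 and 667.8 FPKM with acoustics on, against 249.9, 235.6 and 239.7 FPKM with acoustics off. All acoustics-on libraries were far above the acoustics-off libraries, and replicate 1 was the highest. Pgd rose to 706.4 ± 196.2 FPKM with acoustics on, against 241.7 ± 7.39 FPKM with acoustics off (SD, n = 3 each), a log2 difference of 1.51 (SE 0.21; limma, adjusted p = 0.021). The call was lost without acoustics-on replicate 3 (adjusted p = 0.077) and without any 1 of the acoustics-off libraries (adjusted p = 0.13 to 0.14), with log2 differences of 1.49 to 1.53 in these limma fits.

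Within the oxidative branch, Pgd took a larger share of the summed FPKM. Its share was 69.4%, 62.5% and 66.8% in the acoustics-on libraries, against 49.6%, 47.5% and 49.2% in the acoustics-off libraries. The share of Pgls was 21.4%, 16.6% and 11.9% with acoustics on and 28.7%, 29.8% and 28.6% with acoustics off. The share of G6pdx was 9.25% in acoustics-on replicate 1 and 20.9% and 21.4% in replicates 2 and 3, against 21.7% to 22.7% with acoustics off. As deposited, the groups did not overlap in any of the 3 shares. For G6pdx only acoustics-on replicate 1 was far from the acoustics-off libraries. Shares of the same sum are tied, so a larger share of Pgd lowers the others, and they are not separate results. The shares also carry the length trend. With it divided out, Pgls in acoustics-on replicate 1 was at 171.8 FPKM in place of 282.8. The shares were not compared after that correction.

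Taldo1 encodes transaldolase, which moves a dihydroxyacetone unit between sugar phosphates in the non-oxidative branch (chromosome 7, 141392199 to 141402968). It had 768.5, 685.8 and 587.0 FPKM with acoustics on, against 354.3, 353.5 and 353.1 FPKM with acoustics off. The acoustics-off values were nearly the same, and every acoustics-on value was far above them. Taldo1 rose to 680.4 ± 90.9 FPKM with acoustics on, against 353.6 ± 0.62 FPKM with acoustics off (SD, n = 3 each), a log2 difference of 0.93 (SE 0.15; limma, adjusted p = 0.034). Its longest transcript has 1362 bases, and with the length and GC trend divided out the log2 difference was 0.70 (adjusted p = 0.013). The call was lost without acoustics-on replicate 2 (adjusted p = 0.065) and without any 1 acoustics-off library (adjusted p = 0.21 to 0.22).

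Tkt encodes transketolase, the other non-oxidative enzyme, which moves a glycolaldehyde unit and needs thiamine diphosphate (chromosome 14, 30548359 to 30574720). It had 20.8, 24.7 and 24.6 FPKM with acoustics on, against 18.9, 17.6 and 18.5 FPKM with acoustics off. The groups did not overlap, and acoustics-on replicate 1 was again the lowest of its group. The log2 difference was 0.33 (95% interval 0.04 to 0.62) and did not pass over all genes (limma, adjusted p = 0.21). It passed without acoustics-on replicate 1, at 0.41 (limma, adjusted p = 0.030). Per length, Tkt was at 2.64% to 4.02% of the summed FPKM of the non-oxidative branch with acoustics on and at 4.74% to 5.06% with acoustics off, and Taldo1 made up the rest.

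Me1 encodes the cytosolic, NADP-dependent malic enzyme (chromosome 9, 86581371 to 86695953, minus strand). It had 22.4, 19.9 and 26.9 FPKM with acoustics on, against 4.12, 4.10 and 3.51 FPKM with acoustics off. No other member moved by as large a factor, and the acoustics-on values were close to each other. Me1 rose to 23.1 ± 3.54 FPKM with acoustics on, against 3.91 ± 0.35 FPKM with acoustics off (SD, n = 3 each), a log2 difference of 2.29 (SE 0.15; limma, adjusted p = 0.0020). It passed in each of the 6 fits that left out 1 library, with log2 differences from 2.18 to 2.38. Among the genes tested, its level stood on average at percentile 67.5 with acoustics on and at percentile 25.7 with acoustics off.

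Me2 encodes the mitochondrial malic enzyme, which uses NAD in preference to NADP (chromosome 18, 73769903 to 73815449). It had 26.0, 24.9 and 23.3 FPKM with acoustics on, against 24.9, 24.3 and 23.8 FPKM with acoustics off. The groups overlapped, with a log2 difference of 0.02 (95% interval -0.24 to 0.28; limma, adjusted p = 0.92). The ratio of Me1 to Me2 within a library does not move with library scaling. It was 0.86, 0.80 and 1.15 with acoustics on, against 0.17, 0.17 and 0.15 with acoustics off. The log2 ratio, with 1 FPKM added to both, was 2.27 higher with acoustics on and did not overlap between the groups (exact two-sided permutation test, p = 0.10, the smallest that 3 against 3 allows, and 0.20 adjusted over the 2 ratios tested). Me1 made up 44.5% to 53.5% of the malic enzyme FPKM with acoustics on and 12.8% to 14.4% with acoustics off.

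Idh1 and Idh2 encode the NADP-dependent isocitrate dehydrogenases of the cytosol and peroxisomes and of the mitochondria. Idh1 (chromosome 1, 65158616 to 65186500) had 166.4, 274.1 and 197.5 FPKM with acoustics on, against 236.9, 227.1 and 235.3 FPKM with acoustics off. The acoustics-on libraries fell on both sides of the acoustics-off libraries, with a log2 difference of -0.16 (95% interval -0.63 to 0.30; limma, adjusted p = 0.63). Idh2 (chromosome 7, 80094846 to 80115392) had 102.2, 122.6 and 86.2 FPKM with acoustics on, against 107.1, 112.4 and 111.1 FPKM with acoustics off. Its groups overlapped too, with a log2 difference of -0.10 (95% interval -0.47 to 0.26; limma, adjusted p = 0.70). The ratio of Idh1 to Idh2 was 1.63, 2.24 and 2.29 with acoustics on, against 2.21, 2.02 and 2.12 with acoustics off. The log2 ratio differed by -0.06 (exact two-sided permutation test, p = 1.0, also after adjustment), and the intervals above leave room for changes of either sign in both genes.

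**Figure D2:**
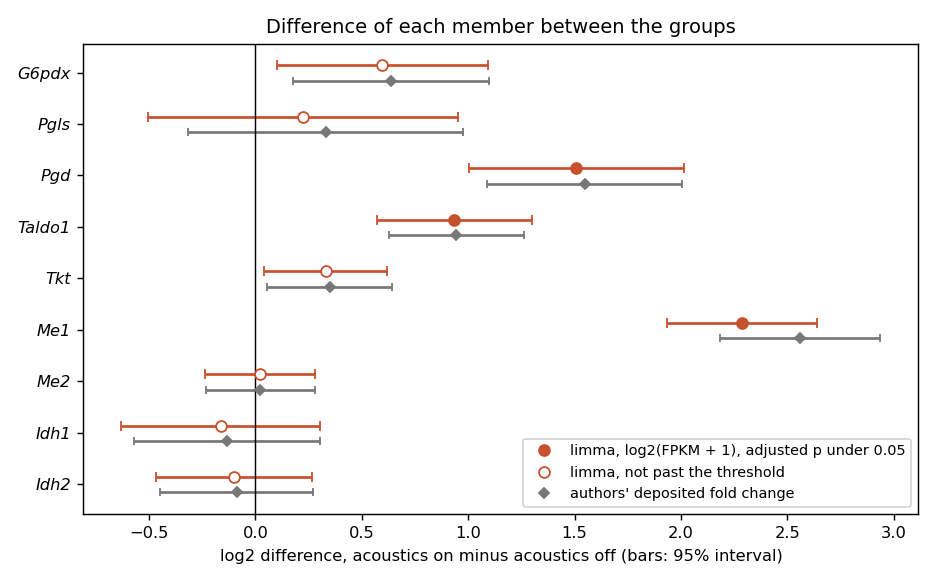
Log2 difference of each member, acoustics on minus acoustics off, with 95% intervals. Circles are limma on log2(FPKM + 1), filled where the adjusted p was under 0.05, and diamonds are the authors' deposited fold changes. Me1, Pgd and Taldo1 stand at 2.29, 1.51 and 0.93, and the intervals of Pgls, Me2, Idh1 and Idh2 include 0.

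The authors' deposited table, made from counts, gave log2 fold changes of 2.56 for Me1 (adjusted p = 4.6e-37), 1.55 for Pgd (adjusted p = 5.1e-09) and 0.94 for Taldo1 (adjusted p = 4.6e-07). In the authors' deposited table G6pdx was at 0.64 (adjusted p = 0.072) and Tkt at 0.35 (adjusted p = 0.14), and neither passed. The limma log2 difference of Me1 with 0.1 FPKM added in place of 1 was 2.52, nearer to the value of the authors' deposited table. The mean normalised counts of the members in the authors' deposited table ran from 1514 for Me1 to 41365 for Pgd. A count of those sizes has a counting error of 2.57% and 0.49%. These counts are averaged over both groups, so the counting error of Me1 with acoustics off, where it was lower, is larger than 2.57%. The coefficient of variation between libraries was 5.32% to 49.1% across the members with acoustics on and 0.18% to 8.88% with acoustics off. It was larger with acoustics on for 9 of 9 members and for 88.9% of all genes tested.

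Summed over the 9 members, the level was 2429, 2431 and 2715 per 1000000 of all FPKM with acoustics on, against 1487, 1496 and 1500 with acoustics off. The mean was 2525 ± 164.8 with acoustics on and 1494 ± 6.59 with acoustics off (SD, n = 3 each), a ratio of 1.69. The oxidative branch was at 1251 ± 192.1 per 1000000 with acoustics on and 597.8 ± 4.02 with acoustics off. The non-oxidative branch was at 834.8 ± 40.2 with acoustics on and 448.5 ± 4.22 with acoustics off, and the malic enzymes at 57.6 ± 11.2 with acoustics on and 34.1 ± 0.71 with acoustics off. The isocitrate dehydrogenases were at 381.9 ± 107.2 with acoustics on and 414.1 ± 6.52 with acoustics off. Pgd made up 32.9% ± 5.75 of the member sum with acoustics on and 19.5% ± 0.46 with acoustics off, and Me1 1.10% ± 0.25 with acoustics on and 0.32% ± 0.03 with acoustics off.

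**Figure D3:**
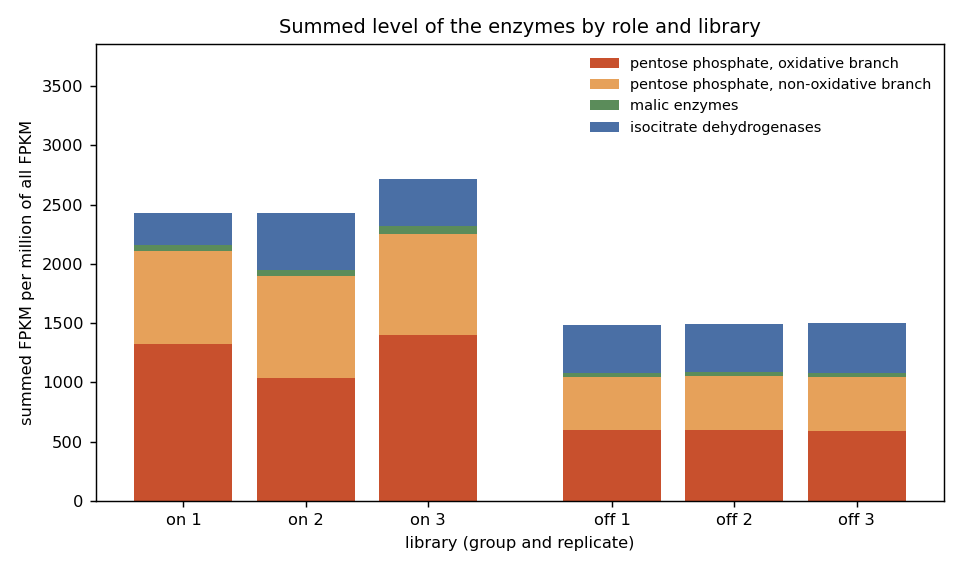
Summed FPKM of the members per 1000000 of all FPKM in each library, stacked by role (y axis from 0), acoustics on at the left and acoustics off at the right. The 3 acoustics-on libraries reach 2429 to 2715 per 1000000 and the 3 acoustics-off libraries 1487 to 1500, with the pentose phosphate segments taller and the isocitrate dehydrogenase segment not separated.

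FPKM is scaled by length, but a trend with length remained in these libraries, strongest in acoustics-on replicate 1. The orders given here are of FPKM as deposited and carry that trend. With acoustics off the order was Taldo1, Pgd, Idh1 and Pgls from the top, then Idh2 and G6pdx, then Me2, Tkt and Me1. The ranges of Idh2 and G6pdx overlapped there. Those of Pgd and Idh1 overlapped too, though Pgd ranked above Idh1 within each acoustics-off library. With acoustics on, Pgd ranked above Taldo1 in replicates 1 and 3 and below it in replicate 2, so this pair was not separated. Idh1, Pgls and G6pdx overlapped in the acoustics-on group, and the range of Idh2 reached those of Pgls and G6pdx. Me2, Tkt and Me1 lay far below these and overlapped with each other, all between 19.9 and 26.9 FPKM. Me1 ranked last of the 9 in every acoustics-off library, and eighth, ninth and seventh in acoustics-on replicates 1, 2 and 3.

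**Figure D4:**
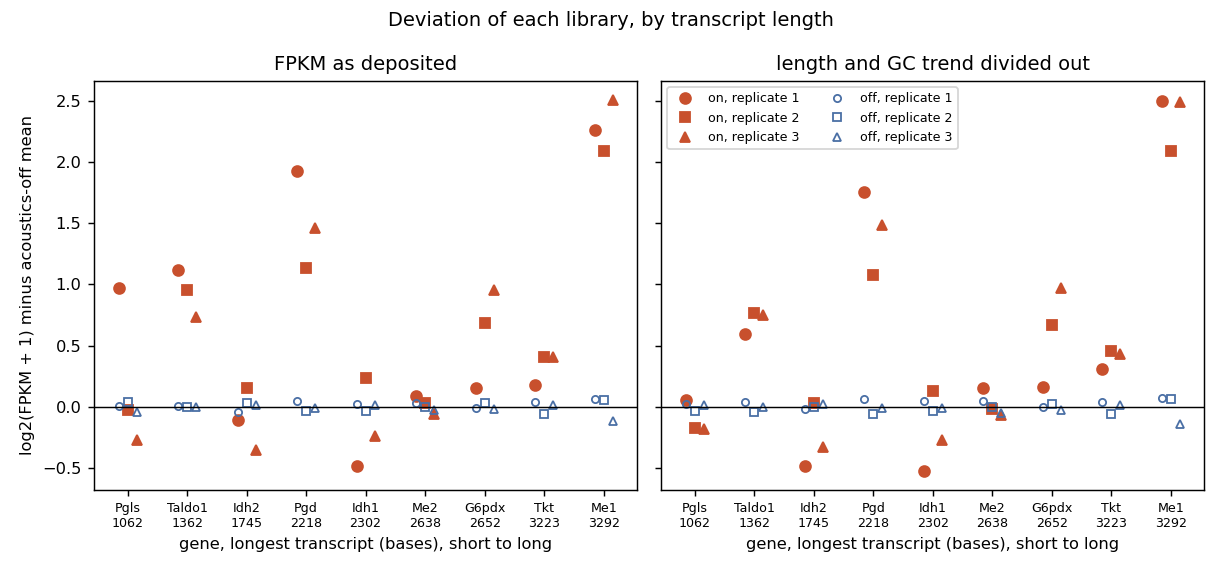
Log2(FPKM + 1) of each library minus the acoustics-off mean (y axis), for members ordered by the length of their longest transcript (x axis), as deposited at the left and with the length and GC trend divided out at the right; filled symbols are acoustics-on and open symbols acoustics-off libraries. The value of Pgls in acoustics-on replicate 1 is at 0.97 as deposited and near 0 at the right, while Me1, Pgd and Taldo1 stay above 0 in every acoustics-on library in both panels.

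Genes around the members were read from 6 lists, which were chosen with earlier results of these data known. Of 11 other pentose phosphate genes tested, 0 rose and 0 fell (limma over all genes; 2 higher and 0 lower at an unadjusted p under 0.05), with a median log2 difference of 0.11. Dera, the deoxyribose-phosphate aldolase, came closest, at 25.2 ± 6.56 FPKM with acoustics on and 14.4 ± 1.88 with acoustics off (SD, n = 3 each; limma, adjusted p = 0.12), and it was the 1 gene of the list called higher in the authors' deposited table. Tigar, whose product lowers fructose-2,6-bisphosphate, averaged 15.8 ± 3.58 FPKM with acoustics on and 12.0 ± 1.26 with acoustics off (limma, adjusted p = 0.33). Pgm2 was at a log2 difference of 0.38 and Prps2, which draws ribose 5-phosphate into nucleotide synthesis, at -0.45 (limma, adjusted p = 0.24 and 0.28).

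Of 12 other genes for NADPH and NADP supply tested, 0 rose and 0 fell (limma; 1 higher and 0 lower at an unadjusted p under 0.05, and 0 either way in the authors' deposited table), with a median log2 difference of -0.07. The folate enzyme gene Mthfd2 averaged 27.1 ± 9.27 FPKM with acoustics on and 16.1 ± 2.64 with acoustics off (SD, n = 3 each; limma, adjusted p = 0.25). The transhydrogenase gene Nnt averaged 14.7 ± 6.51 FPKM with acoustics on and 21.1 ± 1.33 with acoustics off (limma, adjusted p = 0.34). Mthfd2l, a mitochondrial folate enzyme gene, was at a log2 difference of 0.28 and the glutamate dehydrogenase gene Glud1 at -0.43 (limma, adjusted p = 0.35 and 0.34).

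Of 22 genes for NADPH-using proteins tested, 4 rose and 0 fell (limma), where 1.5% of all genes were higher and 0.574% lower. This list too was chosen with earlier results of these data known, so the shares of all genes stand beside it as a description. At an unadjusted p under 0.05 the count was 10 higher and 0 lower, where 10.5% of all genes were higher. The median log2 difference was 0.43. The authors' deposited table called 9 of them higher and 0 lower, with 5.08% of its genes higher. The 10 and the 9 include Nqo1 and the inducible nitric oxide synthase gene Nos2, both under 0.5 FPKM in all acoustics-off libraries. Nqo1, a quinone reductase, had 2.90, 5.95 and 3.26 FPKM with acoustics on, against 0.33, 0.41 and 0.21 FPKM with acoustics off (log2 difference 1.89; limma, adjusted p = 0.014). All its acoustics-off values were under 0.5 FPKM, so it entered the test only through the acoustics-on libraries, and its place among the 4 is a description. It was not tested in 3 of the 6 fits that left out a library, and did not pass in the other 3 (adjusted p = 0.080 to 0.094). Txnrd1, the cytosolic thioredoxin reductase, averaged 98.3 ± 19.0 FPKM with acoustics on and 46.6 ± 1.04 with acoustics off (log2 difference 1.04; limma, adjusted p = 0.026). The largest difference in this list, that of the inducible nitric oxide synthase gene Nos2, did not pass, although the authors' deposited table called it higher, and it is named after its value was seen. Nos2 had 1.13, 18.9 and 19.2 FPKM with acoustics on, against 0.318, 0.438 and 0.338 FPKM with acoustics off (log2 difference 2.80; limma, adjusted p = 0.15). It too entered the test only through the acoustics-on libraries, of which replicate 1 was far below the other 2. The carbonyl reductase gene Cbr3 and the aldo-keto reductase gene Akr1b8 rose by 1.22 and 1.24 on the log2 scale (limma, adjusted p = 0.029 and 0.019). Akr1b8 and Akr1b3 are close relatives, so shared reads leave the value of Akr1b8 uncertain. Txnrd1, Cbr3 and Akr1b8 each passed in 2 of the 6 fits that left out a library. Txnrd1 did not pass with equal library sums or quantile normalisation (limma, adjusted p = 0.097 and 0.059), nor Cbr3 with no filter (adjusted p = 0.053).

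Among 15 citrate cycle and malate partners tested, 0 rose and 0 fell (limma; 1 higher and 0 lower at an unadjusted p under 0.05), with a median log2 difference of 0.06. Idh3a, a subunit of the NAD-dependent isocitrate dehydrogenase, averaged 51.4 ± 4.60 FPKM with acoustics on and 36.5 ± 0.45 with acoustics off (SD, n = 3 each; limma, adjusted p = 0.096), and the authors' deposited table called it higher. Mdh2, the mitochondrial malate dehydrogenase gene, was at a log2 difference of 0.37 and Idh3g at -0.27 (limma, adjusted p = 0.28 and 0.31). Of 11 glycolysis genes that share intermediates with the pathway, 0 rose and 1 fell (limma; 1 higher and 2 lower at an unadjusted p under 0.05, and 1 higher and 1 lower in the authors' deposited table), with a median of -0.03. It was Hk2, a hexokinase that makes glucose 6-phosphate, with 14.3, 14.5 and 16.2 FPKM with acoustics on, against 25.2, 23.9 and 24.5 FPKM with acoustics off (log2 difference -0.68; limma, adjusted p = 0.035). Hk2 passed in 1 of the 6 fits that left out a library. With the length and GC trend divided out it was at -0.42 and did not pass (limma, adjusted p = 0.10), nor did it with equal library sums or no filter on low values (adjusted p = 0.13 and 0.051). Of 7 regulators, Mafg, a small MAF partner of NRF2, rose to 51.4 ± 8.33 FPKM with acoustics on, against 29.5 ± 0.43 FPKM with acoustics off (SD, n = 3 each; limma, adjusted p = 0.047), and 0 fell (1 at an unadjusted p under 0.05, and 1 in the authors' deposited table, Mafk). Mafg passed in 2 of the 6 fits that left out a library. It did not pass with equal library sums, quantile normalisation or no filter (limma, adjusted p = 0.14, 0.058 and 0.076). Every acoustics-on library lay above every acoustics-off library for 1 regulator, Mafg, and below for 3, Nfe2l2, Bach1 and Mafk. Among all genes tested these orders held for 17.1% (above) and 17.7% (below). Nfe2l2, the gene of NRF2, had 63.3, 78.6 and 75.8 FPKM with acoustics on, against 89.9, 87.6 and 84.4 FPKM with acoustics off (limma, adjusted p = 0.29). Nfe2l2 and Bach1 are named after their values were seen.

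**Figure D5:**
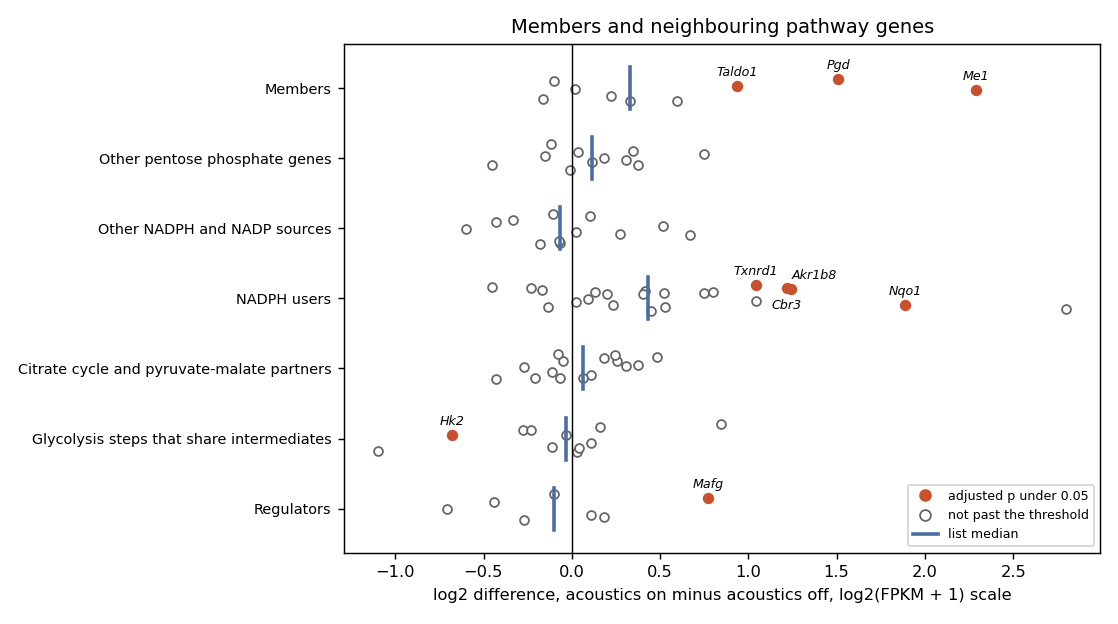
Log2 difference, acoustics on minus acoustics off (x axis, log2(FPKM + 1) scale), of every tested gene of the members and of the 6 lists (rows); filled points had an adjusted p under 0.05 and bars are medians. The medians run from -0.10 for the regulators to 0.43 for the genes of NADPH-using proteins, with the members at 0.33.

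The genes most like the 3 risers were found by the Euclidean distance between deviations from the acoustics-off mean, on the log2(FPKM + 1) scale over the 6 libraries. For Me1 they were Irf7, an interferon regulatory factor (distance 0.21), and Il1rn, the interleukin-1 receptor antagonist (0.67). Irf7 had 70.9, 59.4 and 78.7 FPKM with acoustics on, against 13.1, 15.7 and 13.0 FPKM with acoustics off. For Pgd they were Snx7, Emp2 and Fcrl1 (distances 0.22 to 0.27), which like Pgd were highest in acoustics-on replicate 1 and lowest of that group in replicate 2. For Taldo1 they were Tfec, Akr1c13 and Glrx, the last a glutaredoxin (distances 0.17 to 0.20). They were chosen for their likeness to genes that rose, so their own direction is no further result.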

How the data were processed

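RNA-seq libraries of acoustics-on and acoustics-off cells (3 each) were compared. Per the labels' protocols ribosomal RNA was depleted, while the molecule field says polyA RNA. Trim Galore (0.6.8), DESeq2 (1.38.2), Salmon (1.4.0) and STAR (2.7.11) are named in the submitters' processing notes, with GRCm38 as the build. How each was run is not given in the sources used here. FPKM per gene and library were deposited by the authors. Their second deposited table gives, per the file headers, a mean normalised count (signal), a log2 fold change with its standard error, a Wald score and p-values.

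The filter on low values kept genes that reached 0.5 FPKM in 3 or more libraries. These were tested with limma 3.58.1 (R 4.3.3) on log2(FPKM + 1), with a trended, robust prior and Benjamini-Hochberg adjustment at 0.05 over all genes. The fit was tested on simulated data in which both groups had the same spread and no length trend was put in. The libraries here differ in both, so that test cannot show how well the p-values hold for them. Differences of low genes are understated by the added 1. No counts were used, so depth is known here only as the authors' mean normalised counts. Ratios had exact permutation tests (scipy 1.17.1). No value above 0 was the same in any pair of libraries. Deviations from the group means of same-numbered libraries had correlations of -0.07, -0.02 and -0.0039. With group means of 3 libraries such correlations cannot exclude a shared batch, so whether the numbers pair the libraries is not known.

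Positions, lengths and GC come from GENCODE M21 (15943 symbols matched), and promoters from RefSeq. The length and GC correction divided a loess trend (span 0.5) of each library out of FPKM. Named were all members, the genes past the threshold in each list or else the 4 with the smallest p, and the 3 nearest profiles of each riser. Some of the genes so chosen are not reported here. Members, lists and tests were chosen with earlier results of these data known. Alternatives were pseudocounts, filters, scalings, priors, library weights, a replicate block and left-out libraries.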

Additional observations from a re-analysis of the deposited data

How the results depend on the processing

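Over 19 alternatives Me1 passed in 19, Pgd in 15 and Taldo1 in 12, each with a positive log2 difference throughout, and G6pdx and Tkt passed in 3 each. Taldo1 did not pass with no filter on low values (adjusted p = 0.051). The number of members called was 1 to 5 with 1 library left out, where 0.121% to 4.34% of all genes were higher. It was 5 with library quality weights (9.41% of all genes higher). It was also 5 with the length and GC correction without acoustics-on replicate 1 (5.99% of all genes higher). With a replicate block it was 2, with 1.14% of all genes higher. There Taldo1 was lost (limma, adjusted p = 0.092), as were Hk2 and Mafg (adjusted p = 0.12 and 0.10). With the block and the correction it was 2, with 0.6% of all genes higher (Taldo1 at adjusted p = 0.063). Whether the numbers pair the libraries is not known. Over all genes the 242 calls became 150 with no filter, 1882 with library quality weights, 578 with the length and GC correction, 93 with that correction and the replicate block, 179 with the block alone, 1283 with the correction without acoustics-on replicate 1, and 17 to 855 with 1 library left out. The share of higher calls was 58.1% with the length and GC correction and 72.3% without it. Of the 6 uncalled members, Pgls, Me2, Idh1 and Idh2 changed sign. Pgls was at -0.021 with weights, -0.10 with the correction (also with the block), -0.17 with the correction without acoustics-on replicate 1 and -0.15 to 0.47 with 1 library left out. Me2 was at -0.046 with the correction without acoustics-on replicate 1 and -0.015 to 0.059 with 1 library left out. Idh1 and Idh2 were at 0.13 and 0.058 with weights, and Idh2 at -0.23 to 0.023 with 1 library left out. The Idh1 to Idh2 log2 ratio differed by 0.038 with the correction, 0.077 with it and without acoustics-on replicate 1, and -0.15 to 0.097 with 1 library left out. The Me1 to Me2 ratio kept its sign, at 2.12 to 2.50, and the summed level was 935.5 to 1079 per 1000000 higher with acoustics on. The cause of these shifts was not tested. With 3 libraries a group, no exact test of a ratio can pass 0.05.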

Other observations

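The hexokinase genes, which supply glucose 6-phosphate to G6pdx, did not move alike. Hk3 had 179.4, 108.2 and 140.9 FPKM with acoustics on, against 71.9, 83.6 and 77.2 FPKM with acoustics off. Its groups did not overlap, and its log2 difference of 0.85 did not pass (limma, adjusted p = 0.090), while the authors' deposited table called it higher. Hk1 averaged 65.1 ± 5.91 FPKM with acoustics on and 66.5 ± 1.80 FPKM with acoustics off (SD, n = 3 each). Pfkfb3, whose product raises fructose-2,6-bisphosphate and so glycolysis, had 10.1, 30.8 and 28.9 FPKM with acoustics on, against 46.3, 43.6 and 47.7 FPKM with acoustics off (log2 difference -1.10; limma, adjusted p = 0.20). Hk3, Hk1 and Pfkfb3 are named here after their values were seen.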
